A study of Homo sapiens with 9 samples.

Results

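Angiopoietins, vascular endothelial growth factors (VEGFs), their receptors and a group of vessel-associated genes were followed in SKOV3 cells. SKOV3 is an established line from a human ovarian cancer with an amplified ERBB2 gene. The 10 genes were the rows of the deposited table with the names ANGPT1, ANGPT2, TEK, TIE1, VEGFA, VEGFB, VEGFC, ANGPTL4, PLVAP and NRP1, out of 36785 genes in all. The list was made with measured changes of these libraries known, and which genes were chosen by their change is not stated. ANGPT2 and PLVAP, whose lower level in sh1 than in shNC libraries was known, are treated here as chosen by it and described without a test. All cells of the study had been transduced with lentivirus. The libraries labelled sh1 carried the genotype of knockdown 1 of STXBP6, those labelled sh3 the genotype of knockdown 3, and those labelled shNC the genotype NC, taken here as the control. Each of the 3 groups held 3 libraries of poly(A)-selected RNA, and the labels name neither separate cultures nor clones, so the p-values cover the spread among these libraries, and that spread may be technical.

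The libraries held 57654447 to 69264400 read counts, and 21296 genes passed the filter on low counts and were tested. STXBP6, which encodes the syntaxin-binding protein amisyn and is the gene the hairpins were made against, had 7, 4 and 26 counts in sh1 libraries, 20, 31 and 18 in sh3 libraries and 4, 0 and 15 in shNC libraries. All sh3 libraries thus had more STXBP6 counts than any shNC library, and sh1 overlapped shNC. A lower level in sh1 or sh3 than in shNC was not detectable at this depth (two-sided exact permutation test of CPM, counts scaled by library total, p = 0.5 for sh1 and p = 0.1 for sh3, the smallest p that 3 against 3 allows). In edgeR the log2 difference of STXBP6 in sh3 against shNC was 1.81 with all libraries and not called, a direction that goes against the label of sh3. Without shNC replicate 3 it was 3.54 and called higher (edgeR adjusted p = 0.046). The control libraries left then had 4 and 0 counts, so this call is given no weight. The names sh1, sh3 and shNC therefore stand for the libraries labelled so, and every direction given here rests on those labels. The shNC replicate 3 stood apart from the other 2 control libraries, with a chi-square per degree of freedom of 15.6 and 17.3 against them, where all other replicate pairs lay between 8.51 and 10.3. Changes of the 10 genes are also given without it.

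In blood vessels ANGPT1 activates the endothelial receptor tyrosine kinase TEK (TIE2) and stabilises the vessel wall, while ANGPT2 competes for the same receptor and loosens it, and TIE1 is a related receptor that modulates TEK. The VEGF ligands act on the receptors FLT1, KDR and FLT4, with the neuropilins NRP1 and NRP2 as co-receptors, and drive sprouting of blood and lymphatic vessels. Tumour cells secrete many of these ligands, while the receptors and PLVAP, the protein of endothelial diaphragms, are best known from endothelium.

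The 10 genes covered a wide range of levels in the control cells. Levels between genes are given as FPKM, counts scaled by transcript length and library size, as mean and SD of 3 libraries. In shNC cells ANGPT2 was the highest at 63.8 ± 0.548 FPKM, followed by NRP1 at 30.6 ± 2.9 FPKM. PLVAP at 23.2 ± 0.891 FPKM and VEGFB at 23.0 ± 0.917 FPKM came next and overlapped each other. ANGPTL4 averaged 11.3 ± 0.75 FPKM, VEGFA 8.94 ± 1.12 FPKM and VEGFC 3.75 ± 0.54 FPKM. TIE1, ANGPT1 and TEK were all below 0.5 FPKM. In sh1 cells the order was different: VEGFB and NRP1 led at 18.2 ± 0.245 and 17.2 ± 0.534 FPKM, and ANGPT2 at 4.53 ± 0.25 FPKM overlapped VEGFC at 4.6 ± 0.362 FPKM. In sh3 cells ANGPT2 was again the highest at 61.7 ± 2.33 FPKM, and VEGFB and NRP1, at 20.7 ± 0.647 and 20.4 ± 0.132 FPKM, overlapped.

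**Figure D1:**
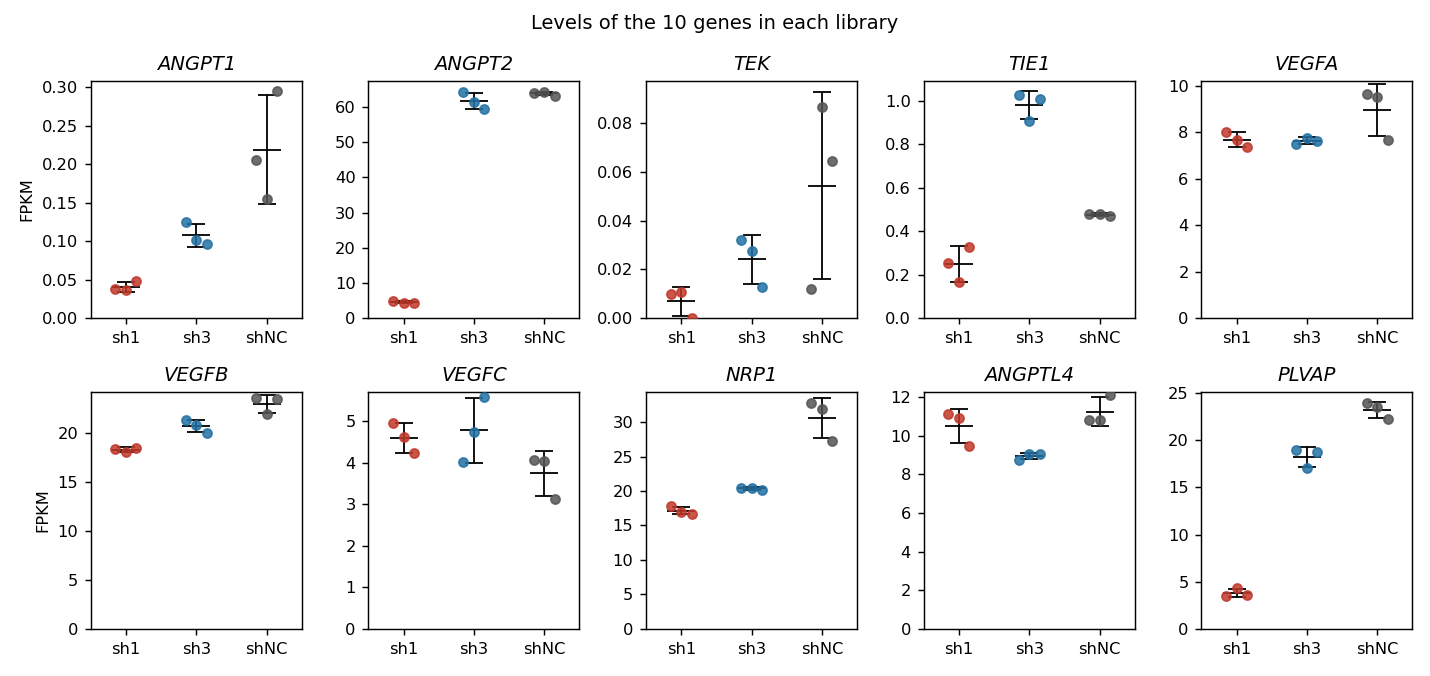
Level of each of the 10 genes in FPKM (y axis, linear from 0, its own scale in each panel) in the sh1, sh3 and shNC libraries (x axis); points are libraries, horizontal bars the group mean and whiskers the SD of 3 libraries. ANGPT2 lay at 4.37 to 4.82 FPKM in sh1 libraries, against 59.5 to 64.1 FPKM in sh3 and 63.2 to 64.2 FPKM in shNC libraries, and TIE1 lay lowest in sh1 and highest in sh3.

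By edgeR's quasi-likelihood test at a Benjamini-Hochberg adjusted p under 0.05 over all genes tested, 6 of the 10 genes were lower and 0 higher in sh1 than in shNC, where 18.8% of all tested genes were lower, 19.9% higher and 38.7% called in either direction. In sh3 against shNC 6 were lower and 1 higher, where 12.4% of all tested genes were lower, 14.4% higher and 26.9% called. Without sh3 replicate 2, or without sh3 replicate 3, 4 of the 10 were called in sh3 in either direction. Between the hairpins 6 were lower and 1 higher in sh1 than in sh3, where 12.9% of all tested genes were lower, 13.0% higher and 25.9% called. Without ANGPT2 and PLVAP, 4 of the other 8 were lower in sh1 and 5 were lower and 1 higher in sh3 than in shNC, and 4 were lower and 1 higher in sh1 than in sh3. The list was made with these contrasts known, so its counts are not read against those shares. The comparisons against shNC share their control libraries, which is why the difference between sh1 and sh3 stands beside each of them.

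Without shNC replicate 3 the log2 changes in sh1 against shNC were -2.09 for ANGPT1, -3.79 for ANGPT2, -2.55 for TEK, -0.89 for TIE1, -0.28 for VEGFB, -0.01 for ANGPTL4 and -2.61 for PLVAP. In sh3 against shNC they were -0.72 for ANGPT1, -0.05 for ANGPT2, -0.97 for TEK, 1.03 for TIE1, -0.13 for VEGFB, -0.27 for ANGPTL4 and -0.37 for PLVAP. Every direction was as with all 9 libraries, and the calls of ANGPT1 and VEGFB in sh3 were lost. VEGFA, VEGFC and NRP1 without that library are given beside their values.

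Both angiopoietin ligands were lower in the sh1 libraries than in all others, and ANGPT2 was by far the more abundant. ANGPT2 (ENSG00000091879, GRCh38 chromosome 8, 6499632 to 6563409, minus strand), the context-dependent antagonist of TEK, had 4.82, 4.37 and 4.4 FPKM in sh1 libraries, 64.1, 61.3 and 59.5 FPKM in sh3 libraries and 64.0, 64.2 and 63.2 FPKM in shNC libraries. The sh1 libraries lay far below all others, and sh3 overlapped shNC. On the log2 scale the sh1 level was -3.78 ± 0.04 (SE) against shNC, 13.8-fold lower, and -3.74 ± 0.04 against sh3, 13.3-fold lower. The sh3 level differed from shNC by -0.05 ± 0.04, 1.03-fold. These values rest on deep counts, 6350 over the 3 sh1 libraries, 86053 over sh3 and 90289 over shNC. In bulk RNA, fewer cells that make a transcript and less of it per cell cannot be told apart.

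ANGPT2 lies within MCPH1, a gene of chromosome condensation that is read from the opposite strand (chromosome 8, 6406592 to 6648508), and no source used here says whether reads were assigned by strand. MCPH1 averaged 0.715 ± 0.0527 FPKM in sh1, 0.941 ± 0.0426 in sh3 and 0.972 ± 0.0149 in shNC libraries, a change of -0.41 ± 0.06 on the log2 scale in sh1 against shNC (edgeR adjusted p = 2.7e-04) and -0.36 ± 0.06 against sh3 (adjusted p = 0.0013). In counts over 3 libraries MCPH1 had 4056 in sh1, 5272 in sh3 and 5537 in shNC, against 6350, 86053 and 90289 for ANGPT2 in the same order, so that in sh1 the counts of the 2 genes were of like size. How far reads are shared between the 2 genes was not tested.

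ANGPT1 (ENSG00000154188, chromosome 8, 107249482 to 107498055, minus strand), the agonist of TEK, was scarce. It had 0.0376, 0.0364 and 0.0485 FPKM in sh1 libraries (17 to 27 counts), 0.125, 0.101 and 0.0963 FPKM in sh3 libraries (47 to 67 counts) and 0.206, 0.155 and 0.295 FPKM in shNC libraries (81 to 135 counts). No library of one group overlapped another group, with sh1 lowest and shNC highest. ANGPT1 fell by 2.36 ± 0.30 on the log2 scale in sh1 against shNC (edgeR adjusted p = 6.6e-05). It fell by 1.0 ± 0.28 in sh3 against shNC (adjusted p = 0.021), a call that was lost without sh3 replicate 2 (0.067), sh3 replicate 3 (0.07) or shNC replicate 3 (-0.72, adjusted p = 0.099). It was 1.36 ± 0.30 log2 units lower in sh1 than in sh3 (adjusted p = 0.0063).

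The balance of the 2 ligands, as the ratio of ANGPT2 to ANGPT1 FPKM within a library, was 90.7 to 128 in sh1 libraries, 514 to 618 in sh3 libraries and 214 to 415 in shNC libraries. The 3 ranges did not overlap. ANGPT2 transcripts outnumbered ANGPT1 transcripts in every library, by the smallest factor in sh1 and the largest in sh3. Counting error of the few ANGPT1 reads enters this ratio directly.

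The TIE receptors were both low, and one of them moved in opposite directions with the hairpins. TIE1 (ENSG00000066056, chromosome 1, 43300982 to 43323108, plus strand) had 0.255, 0.165 and 0.328 FPKM in sh1 libraries, 1.03, 0.908 and 1.01 FPKM in sh3 libraries and 0.48, 0.481 and 0.469 FPKM in shNC libraries. Its counts were 73 to 170 in sh1, 399 to 520 in sh3 and 202 to 237 in shNC libraries. Every sh1 library was below and every sh3 library above all shNC libraries. TIE1 fell by 0.88 ± 0.20 on the log2 scale in sh1 against shNC (edgeR adjusted p = 0.0047) and rose by 1.04 ± 0.20 in sh3 against shNC (adjusted p = 0.0021). The difference between sh1 and sh3 was -1.92 ± 0.21 (adjusted p = 4.1e-05), 3.78-fold. These calls were kept in all 16 alternative fits.

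The upstream sequences of TIE1 and PLVAP are shown because both genes were lower in sh1 than in sh3 while differing in their direction in sh3 against shNC. The 250 bases before the RefSeq start of TIE1 (GRCh38.p14, chr1:43300732-43300981, plus strand) and of PLVAP (chr19:17377343-17377592, minus strand) are given 5′ to 3′, with matches to GGAAG, which extends the core bound by ETS transcription factors, known regulators of endothelial genes, or to its reverse complement CTTCC, in capitals.
TIE1: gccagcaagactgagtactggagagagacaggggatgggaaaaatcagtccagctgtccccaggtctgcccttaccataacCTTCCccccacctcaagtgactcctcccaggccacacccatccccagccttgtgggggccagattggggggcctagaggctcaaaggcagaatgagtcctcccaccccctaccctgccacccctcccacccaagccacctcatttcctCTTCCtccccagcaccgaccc
PLVAP: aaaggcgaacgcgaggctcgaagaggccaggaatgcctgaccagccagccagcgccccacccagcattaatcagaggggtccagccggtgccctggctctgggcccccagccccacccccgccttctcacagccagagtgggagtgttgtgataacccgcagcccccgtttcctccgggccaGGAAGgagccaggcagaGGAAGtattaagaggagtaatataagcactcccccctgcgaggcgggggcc
Each window held 2 matches on either strand and neither held ACGTG, the core of the hypoxia response element, or its reverse complement. Over 34941 such windows of RefSeq genes, 65.1% held at least 1 GGAAG on either strand, with 1.14 matches on average, and 18.5% held ACGTG. Of the 10 genes 6 had an upstream sequence used here. TEK, with 2 start sites, held 2 and 1 GGAAG matches, VEGFC 1, VEGFB 0, and ANGPTL4 1 together with 1 ACGTG. A match in these letters is a description of the sequence and does not show that a factor binds there.

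TEK (ENSG00000120156, chromosome 9, 27109141 to 27230173, plus strand), the receptor of the angiopoietins, was close to the limit of detection. It had 4, 4 and 0 counts in sh1 libraries, 12, 9 and 5 in sh3 libraries and 5, 31 and 20 in shNC libraries. Summed over a group this was 0.0423 CPM in sh1 (95% Poisson interval 0.0183 to 0.0834), 0.137 in sh3 (0.0892 to 0.2) and 0.295 in shNC (0.222 to 0.382), intervals that cover counting error only. The gene passed the filter through 2 shNC libraries and 1 sh3 library over 0.163 CPM. Its log2 change was -2.68 ± 1.0 in sh1 against shNC (edgeR adjusted p = 0.054), -1.09 ± 0.9 in sh3 against shNC (adjusted p = 0.43) and -1.59 ± 1.02 in sh1 against sh3 (adjusted p = 0.3), none of them called. With no filter the sh1 change was -2.67 (adjusted p = 0.098). Without shNC replicate 1, the control with 5 counts, it was -3.13 and called (adjusted p = 0.033); no sh1 library had passed the filter, so this call is given no weight.

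**Figure D2:**
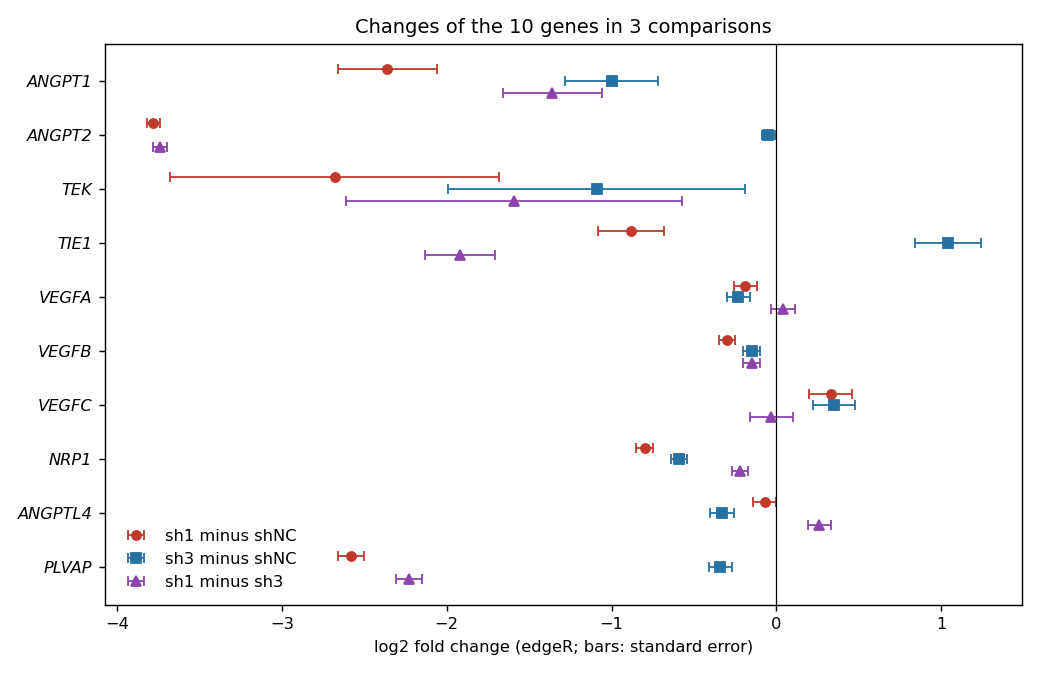
Log2 fold change (x axis) of each of the 10 genes (y axis) from edgeR for sh1 minus shNC, sh3 minus shNC and sh1 minus sh3; points are estimates over 3 libraries per group and bars their standard errors. TIE1 lay at -0.88 for sh1 and 1.04 for sh3, ANGPT2 at -3.78 and -0.05, and NRP1 at -0.80 and -0.59.

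PTPRB and FOXO1, listed with the TEK pathway, were more abundant than the receptor, while ANGPT4, SVEP1 and DOK2 averaged at most 0.0174 FPKM in any group. Of 14 listed genes of the angiopoietin and TIE pathway 12 were tested, of which 5 rose and 4 fell in sh1 against shNC and 4 rose and 3 fell in sh3 against shNC. The median log2 change was 0.17 in sh1 and 0.14 in sh3, against -0.02 and -0.01 over all tested genes. Of all tested genes 19.9% rose and 18.8% fell in sh1, and 14.4% rose and 12.4% fell in sh3. These shares and medians over all tested genes stand beside the counts of every later list too. Without sh1 replicate 1, 3 rose in sh1. PTPRB, the phosphatase that dampens TEK, averaged 6.36 ± 0.272 FPKM in sh1, 8.04 ± 0.192 in sh3 and 10.3 ± 0.404 in shNC libraries, and fell by 0.66 ± 0.04 in sh1 (edgeR adjusted p = 1.1e-07) and by 0.36 ± 0.04 in sh3 (adjusted p = 3.7e-05). FOXO1, the transcription factor that activates ANGPT2 in endothelium, averaged 1.83 ± 0.0932 FPKM in sh1, 2.94 ± 0.214 in sh3 and 4.02 ± 0.036 in shNC libraries, falling by 1.10 ± 0.07 in sh1 and by 0.45 ± 0.07 in sh3. Both of these genes were also lower in sh1 than in sh3, by 0.31 ± 0.04 and 0.65 ± 0.07 log2 units.

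Integrins that can bind ANGPT2 moved unevenly. ITGB3 averaged 5.86 ± 0.151 FPKM in sh1, 2.26 ± 0.247 in sh3 and 1.79 ± 0.152 in shNC libraries, and rose by 1.74 ± 0.08 in sh1 (edgeR adjusted p = 2.1e-08) and by 0.34 ± 0.08 in sh3 (adjusted p = 0.008). ITGB1 was the most abundant of those named at 157 ± 1.89 FPKM in sh1, 129 ± 1.44 in sh3 and 115 ± 1.68 in shNC libraries. ITGA5 averaged 25.9 ± 0.235 FPKM in sh1, 43.0 ± 0.553 in sh3 and 34.0 ± 4.44 in shNC libraries. It fell by 0.36 ± 0.07 in sh1 (adjusted p = 0.0013) and rose by 0.34 ± 0.07 in sh3 (adjusted p = 0.0031), as TIE1 did.

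For the ligands VEGFA, VEGFB and VEGFC the changes were small. VEGFA (ENSG00000112715, chromosome 6, 43770184 to 43786487, plus strand), the main angiogenic ligand of KDR, had 8.0, 7.65 and 7.36 FPKM in sh1 libraries, 7.49, 7.77 and 7.64 FPKM in sh3 libraries and 9.65, 9.53 and 7.65 FPKM in shNC libraries. The sh1 and sh3 libraries lay together, and shNC replicate 3 lay among them while the other 2 shNC libraries lay above. VEGFA changed by -0.19 ± 0.07 on the log2 scale in sh1 against shNC (edgeR adjusted p = 0.051) and fell by 0.23 ± 0.07 in sh3 against shNC (adjusted p = 0.032). The difference between sh1 and sh3 was 0.04 ± 0.07 (adjusted p = 0.76), not distinguishable from 0 at this spread.

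The VEGFA calls depended on single libraries and on the method. Without shNC replicate 3, the library that stood apart, VEGFA was called in both comparisons, at -0.29 ± 0.03 in sh1 (edgeR adjusted p = 4.3e-05) and -0.32 ± 0.03 in sh3 (adjusted p = 3.1e-05). The sh3 call was lost without any 1 of sh3 replicates 1, 2 or 3 (adjusted p = 0.096, 0.068 and 0.095) and without shNC replicate 1 or 2 (-0.17 and -0.18, adjusted p = 0.14 and 0.13). With all 9 libraries it was lost without the filter on low counts (0.072) and with limma on FPKM (0.087 with a pseudocount of 1 and 0.083 with 0.1), and it was lost in the fit of only the 6 libraries compared (0.057). The direction of VEGFA in both comparisons against shNC was the same in all 16 alternative fits.

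VEGFB (ENSG00000173511, chromosome 11, 64234584 to 64239264, plus strand), a ligand of FLT1 tied to fatty acid uptake and cell survival, had 18.3, 18.0 and 18.5 FPKM in sh1 libraries, 21.3, 20.8 and 20.0 FPKM in sh3 libraries and 23.6, 21.9 and 23.4 FPKM in shNC libraries. The groups did not overlap, and sh1 was lowest. VEGFB fell by 0.30 ± 0.05 in sh1 against shNC (edgeR adjusted p = 2.8e-04) and by 0.15 ± 0.05 in sh3 against shNC (adjusted p = 0.036), and was 0.15 ± 0.05 log2 units lower in sh1 than in sh3 (adjusted p = 0.032). The sh3 call was lost without each of sh1 replicates 1, 2 and 3 (adjusted p = 0.056, 0.056 and 0.051), sh3 replicates 2 and 3 (0.086 and 0.14) and shNC replicates 1 and 3 (0.13 and 0.084), with the replicate number as a block (0.052), without the filter on low counts (0.073) and in the fit of only the 6 libraries compared (0.067). The call between the hairpins was lost without each of sh1 replicates 1, 2 and 3 (0.088, 0.11 and 0.057) and sh3 replicates 1 and 2 (0.12 and 0.086).

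VEGFC (ENSG00000150630, chromosome 4, 176683538 to 176792922, minus strand), the lymphangiogenic ligand of FLT4, had 4.95, 4.63 and 4.23 FPKM in sh1 libraries, 4.03, 4.74 and 5.59 FPKM in sh3 libraries and 4.07, 4.05 and 3.12 FPKM in shNC libraries. On the scale of CPM all sh1 and sh3 libraries were above all shNC libraries, but in FPKM the lowest sh3 library lay among them. The log2 change was 0.33 ± 0.13 in sh1 against shNC (edgeR adjusted p = 0.074), 0.35 ± 0.13 in sh3 against shNC (adjusted p = 0.072) and -0.03 ± 0.13 in sh1 against sh3 (adjusted p = 0.91). None of them was called, and without sh3 replicate 1 the sh3 change was (0.46, adjusted p = 0.032). Without shNC replicate 3 the changes were 0.21 in sh1 and 0.24 in sh3 (adjusted p = 0.23 and 0.21). The 2 remaining VEGF-type ligands were scarce: VEGFD had 0.231 to 0.433 FPKM in sh1, 0.387 to 0.475 in sh3 and 0.665 to 0.758 in shNC libraries, and PGF was at or below 0.0977 FPKM throughout. VEGFD was thus lower in every sh1 and sh3 library than in any shNC library, with log2 changes of -0.94 and -0.74.

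The ligands summed to 30.3 to 31.7 FPKM in sh1 libraries, 33.3 to 33.8 in sh3 libraries and 35.0 to 38.0 in shNC libraries. VEGFB made up 57.6% to 60.9% of this sum in sh1, 59.4% to 64.0% in sh3 and 60.3% to 67.0% in shNC libraries. VEGFA made up 24.3% to 25.3% in sh1, 22.5% to 23.0% in sh3 and 21.9% to 26.2% in shNC libraries. The sum was thus ordered sh1, sh3, shNC from low to high without overlap, while the shares of VEGFA and VEGFB overlapped between sh1 and shNC. Against VEGFA, ANGPT2 stood at a ratio of FPKM of 0.572 to 0.602 in sh1 libraries, 7.79 to 8.57 in sh3 libraries and 6.64 to 8.26 in shNC libraries, below 1 in sh1 only.

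**Figure D3:**
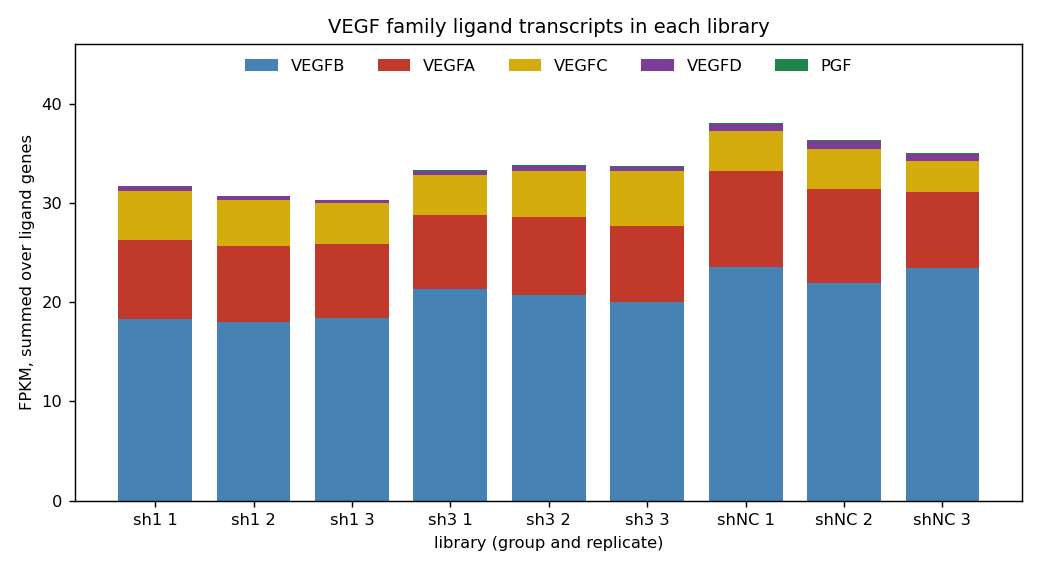
FPKM of the VEGF family ligands stacked for each library (x axis: group and replicate; y axis: FPKM, linear from 0). VEGFB was the largest component in every library, and the stacks reached 30.3 to 31.7 in sh1, 33.3 to 33.8 in sh3 and 35.0 to 38.0 in shNC libraries.

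The co-receptor NRP1 fell with both hairpins. NRP1 (ENSG00000099250, chromosome 10, 33177492 to 33336262, minus strand), which binds VEGFA and class 3 semaphorins, had 17.8, 17.0 and 16.7 FPKM in sh1 libraries, 20.4, 20.5 and 20.2 FPKM in sh3 libraries and 32.7, 31.9 and 27.3 FPKM in shNC libraries. The groups did not overlap, and both hairpins lay well below shNC replicate 3, the lowest control. NRP1 fell by 0.80 ± 0.05 on the log2 scale in sh1 against shNC (edgeR adjusted p = 3.2e-07) and by 0.59 ± 0.05 in sh3 against shNC (adjusted p = 1.0e-05). It was 0.22 ± 0.05 log2 units lower in sh1 than in sh3 (adjusted p = 0.011). Without shNC replicate 3 the changes were -0.88 in sh1 and -0.66 in sh3. All 3 calls held in the 16 alternative fits. NRP1 overlaps the gene ENSG00000238258, which had 4, 10 and 20 counts over the sh1, sh3 and shNC libraries, against 40789, 48103 and 73811 for NRP1.

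Of 10 further VEGF ligands, receptors and signalling genes 9 were tested, with 1 higher and 5 lower in sh1 and 1 higher and 2 lower in sh3 against shNC (median log2 changes -0.41 and 0.05). The lower count in sh3 was 1 without sh1 replicate 2, any 1 of sh3 replicates 1, 2 and 3, or shNC replicate 1 or 2. KDR, the main signalling receptor of VEGFA, had 1.07, 1.09 and 0.913 FPKM in sh1 libraries, 2.6, 2.8 and 2.62 FPKM in sh3 libraries and 1.73, 1.84 and 1.66 FPKM in shNC libraries. As for TIE1, all sh1 libraries were below and all sh3 libraries above shNC. KDR fell by 0.74 ± 0.09 in sh1 (edgeR adjusted p = 4.6e-05), rose by 0.62 ± 0.09 in sh3 (adjusted p = 3.2e-04) and was 1.35 ± 0.09 log2 units lower in sh1 than in sh3 (adjusted p = 1.0e-06). FLT1 had 0, 0 and 4 counts in sh1 libraries, 8, 4 and 10 in sh3 libraries and 0 in each shNC library. FLT4 ranged over 29 to 78 counts in sh1, 52 to 71 in sh3 and 35 to 53 in shNC libraries.

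NRP2, the neuropilin of lymphatic vessels, averaged 13.8 ± 0.201 FPKM in sh1, 18.6 ± 0.522 in sh3 and 18.7 ± 1.59 in shNC libraries. It fell by 0.41 ± 0.05 in sh1 against shNC (edgeR adjusted p = 3.5e-05), and the sh3 libraries overlapped shNC. CCBE1, the matrix protein needed to process VEGFC, averaged 7.66 ± 0.308 FPKM in sh1, 4.0 ± 0.303 in sh3 and 3.91 ± 0.55 in shNC libraries, and rose by 1.0 ± 0.09 in sh1 (adjusted p = 2.9e-06). PLCG1, which couples KDR to calcium signalling, fell by 0.27 ± 0.04 in sh1 (adjusted p = 2.7e-04) and by 0.21 ± 0.04 in sh3 (adjusted p = 0.0029).

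**Figure D4:**
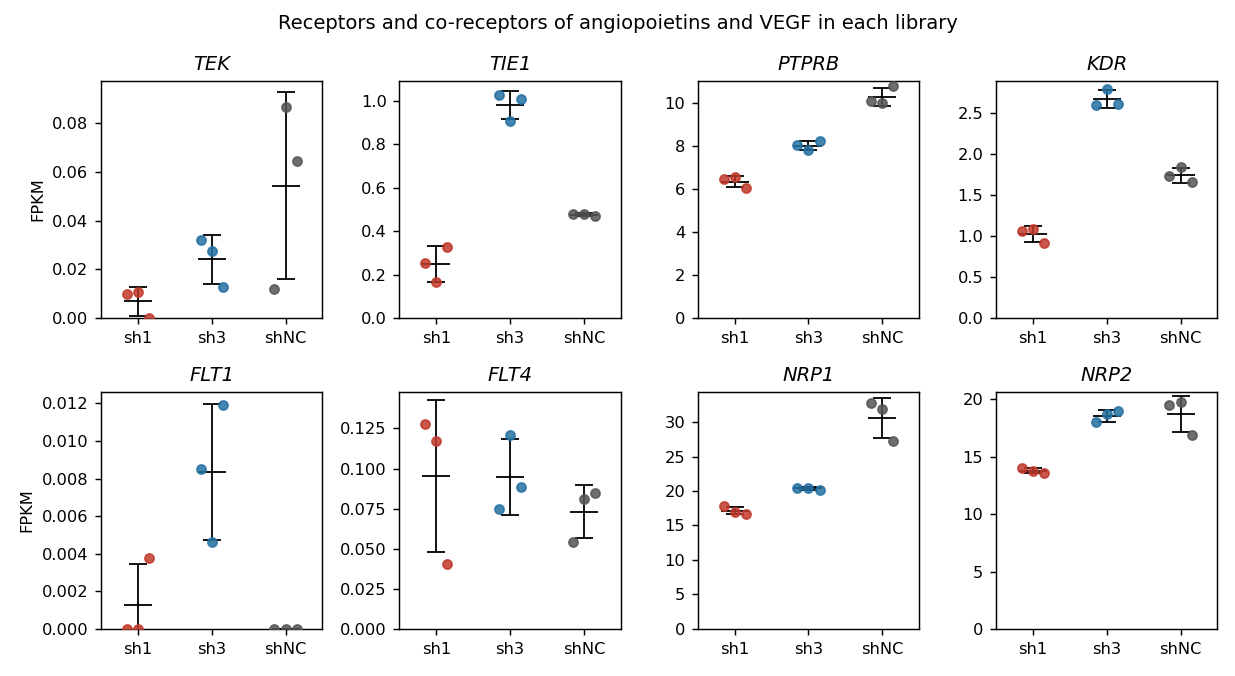
FPKM (y axis, linear from 0, its own scale in each panel) of TEK, TIE1, the TEK phosphatase PTPRB, KDR, FLT1, FLT4, NRP1 and NRP2 in the sh1, sh3 and shNC libraries (x axis); points are libraries, horizontal bars means and whiskers SDs of 3 libraries. KDR and TIE1 shared the order sh1, shNC, sh3 from low to high, while NRP1 and PTPRB were lower with both hairpins than in shNC.

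Semaphorins and plexins, the other partners of neuropilins, were mixed: of 12 tested of 13 listed, 4 rose and 2 fell in sh1, and 4 rose and 2 fell in sh3 against shNC (median log2 changes 0.20 and 0.14). The fallen count in sh1 was 1 without sh1 replicate 2 or 3, sh3 replicate 2, or shNC replicate 1 or 2. SEMA3B, a ligand of the neuropilins that inhibits growth of tumour cells, averaged 5.28 ± 0.322 FPKM in sh1, 1.99 ± 0.204 in sh3 and 3.21 ± 0.126 in shNC libraries, rising by 0.75 ± 0.08 in sh1 (edgeR adjusted p = 1.3e-05) and falling by 0.69 ± 0.08 in sh3 (adjusted p = 6.5e-05). The receptor PLXNA1 rose by 0.52 ± 0.03 in sh1 and by 0.19 ± 0.03 in sh3 (adjusted p = 8.1e-08 and 4.7e-04). PLXND1 rose by 0.41 ± 0.04 and 0.34 ± 0.04 (adjusted p = 5.2e-06 and 4.5e-05).

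ANGPTL4 (ENSG00000167772, chromosome 19, 8363289 to 8374370, plus strand), a secreted inhibitor of lipoprotein lipase that PPARs and hypoxia induce, had 11.1, 10.9 and 9.47 FPKM in sh1 libraries, 8.74, 9.03 and 9.06 FPKM in sh3 libraries and 10.8, 10.8 and 12.1 FPKM in shNC libraries. The sh3 libraries lay below all others, and sh1 overlapped shNC. The log2 change of ANGPTL4 was -0.07 ± 0.07 in sh1 against shNC (edgeR adjusted p = 0.45), while it fell by 0.33 ± 0.07 in sh3 against shNC (adjusted p = 0.0035). It was 0.26 ± 0.07 log2 units higher in sh1 than in sh3 (adjusted p = 0.016), a call lost without sh1 replicate 1 (0.069), sh1 replicate 2 (0.07) or sh3 replicate 1 (0.054).

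Of 10 listed angiopoietin-like genes with lipoprotein lipase and its partners, 4 were tested, with 3 lower and 0 higher in sh1 and 2 lower and 0 higher in sh3 (median log2 changes -0.62 and -0.55). The sh1 count was 1 without sh1 replicate 2 or shNC replicate 2, and the sh3 count was 1 without sh3 replicate 1 or shNC replicate 1 and 0 without sh3 replicate 2 or 3 or shNC replicate 2. ANGPTL2 was the one of them above 1 FPKM, at 1.58 ± 0.146 FPKM in sh1, 1.98 ± 0.113 in sh3 and 2.31 ± 0.056 in shNC libraries, and it fell by 0.51 ± 0.11 in sh1 (edgeR adjusted p = 0.0026). Of 11 tested PPAR target and receptor genes 6 rose and 3 fell in sh1 and 2 rose and 2 fell in sh3 (median log2 changes 0.18 and 0.06). In sh3, 1 rose without sh3 replicate 2 or shNC replicate 1 or 2. PPARA, a receptor that induces ANGPTL4, averaged 1.04 ± 0.0497 FPKM in sh1, 1.32 ± 0.0967 in sh3 and 2.23 ± 0.163 in shNC libraries, and fell by 1.06 ± 0.07 in sh1 and by 0.75 ± 0.07 in sh3 (adjusted p = 4.0e-07 and 1.6e-05). PPARG fell by 0.33 ± 0.07 and 0.32 ± 0.07 (adjusted p = 0.0019 and 0.0035). PPARD, the more abundant receptor, was not lower, at 10.5 ± 0.382 FPKM in sh1, 9.21 ± 0.574 in sh3 and 9.12 ± 0.663 in shNC libraries. HADHA, of fatty acid oxidation, rose by 0.25 ± 0.03 in sh1 (adjusted p = 2.2e-05).

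PLVAP (ENSG00000130300, chromosome 19, 17351450 to 17377342, minus strand), which forms the diaphragms of caveolae and fenestrae, had 3.52, 4.31 and 3.58 FPKM in sh1 libraries, 19.0, 17.0 and 18.7 FPKM in sh3 libraries and 23.9, 23.5 and 22.2 FPKM in shNC libraries. The sh1 libraries were far below the rest, and the sh3 libraries below all shNC libraries. On the log2 scale the level was -2.58 ± 0.08 in sh1 against shNC, 5.97-fold lower, -0.34 ± 0.07 in sh3 against shNC, 1.27-fold lower, and -2.23 ± 0.08 in sh1 against sh3, 4.71-fold lower. Its counts over 3 libraries were 1794 in sh1, 8613 in sh3 and 11112 in shNC.

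The caveolar coat, in which PLVAP diaphragms sit, moved much less. All 6 listed genes were tested, with 1 higher and 5 lower in sh1 and 2 higher and 2 lower in sh3 against shNC (median log2 changes -0.29 and 0.08). Without shNC replicate 3, 4 were higher in sh3. CAV1, the main caveolin, averaged 95.9 ± 1.69 FPKM in sh1, 133 ± 3.12 in sh3 and 126 ± 6.06 in shNC libraries and fell by 0.37 ± 0.04 in sh1 (edgeR adjusted p = 1.2e-05). EHD2, which stabilises caveolae at the membrane, fell by 0.52 ± 0.04 in sh1 and by 0.24 ± 0.04 in sh3 (adjusted p = 3.9e-07 and 4.0e-04). CAVIN1 rose by 0.33 ± 0.05 and 0.27 ± 0.05 (adjusted p = 1.9e-04 and 0.0014).

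Markers of endothelial cells, in which TEK, TIE1, PLVAP and ANGPT2 are known best, were mostly near 0. Of 17 that were measured, 3 averaged at least 1 FPKM in sh1, 4 in sh3 and 4 in shNC libraries, and their summed level was 40.5 to 42.4 FPKM in sh1, 54.8 to 57.5 in sh3 and 59.9 to 62.9 in shNC libraries. Most of that sum was SOX17 and ECSCR. Of the defining markers, PECAM1 had 7 to 17 counts in sh1, 21 to 32 in sh3 and 86 to 100 in shNC libraries, and CDH5 had 0 to 13, 0 to 19 and 10 to 32 counts. VWF had 3, 0 and 0 counts in sh1 libraries, 0 in each sh3 library and 10, 29 and 12 in shNC libraries, and ROBO4 was at 0 in 1 sh1, 2 sh3 and 1 shNC library. Of the 14 tested markers 8 were lower and 0 higher in sh1, and 4 lower and 1 higher in sh3 against shNC (median log2 changes -1.27 and -0.46). Of all tested genes 18.8% were lower and 19.9% higher in sh1, and 12.4% lower and 14.4% higher in sh3 (medians -0.02 and -0.01). The 1 marker higher in sh3 was not called without any 1 of the sh3 libraries or shNC replicate 1 or 2. ECSCR, an endothelial regulator of cell motility, averaged 9.4 ± 0.495 FPKM in sh1, 19.1 ± 0.809 in sh3 and 20.0 ± 1.05 in shNC libraries, and fell by 1.06 ± 0.07 in sh1 (edgeR adjusted p = 4.1e-07). The part of other cells in the levels of the 10 genes was not tested.

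Markers of other cell types and of the line itself were read in the same way. Of 9 leukocyte markers that were measured, 2 were tested, with 2 lower in sh1 and 1 higher in sh3 (and 1 lower in sh3 without sh3 replicate 1), and CD68, a lysosomal protein, was the 1 above 1 FPKM, at 10.8 ± 0.475 FPKM in sh1, 17.9 ± 0.535 in sh3 and 14.2 ± 0.67 in shNC libraries. CSF1R, the other tested marker, had 0 counts in each sh1 library, 14 to 28 in sh3 and 7 to 12 in shNC libraries. No sh1 library had passed the filter for CSF1R, so its call in sh1 is given no weight. PTPRC, the common leukocyte antigen, had 4 counts in shNC replicate 1 and 0 in the other libraries. Pericyte and fibroblast markers summed to 19.6 to 20.3 FPKM in sh1, 13.9 to 14.6 in sh3 and 16.3 to 20.2 in shNC libraries, with 4 higher and 3 lower in sh1 and 2 higher and 4 lower in sh3 of 12 tested (median log2 changes -0.33 and -0.31). LUM, a matrix proteoglycan of fibroblasts, averaged 6.75 ± 0.433 FPKM in sh1, 3.38 ± 0.338 in sh3 and 9.59 ± 1.4 in shNC libraries, and fell by 0.47 ± 0.11 and 1.5 ± 0.11 (edgeR adjusted p = 0.0034 and 1.7e-06). COL1A1, a chain of type I collagen, averaged 8.77 ± 0.177 FPKM in sh1, 7.0 ± 0.0272 in sh3 and 5.26 ± 0.644 in shNC libraries, and rose by 0.77 ± 0.07 and 0.42 ± 0.07 (adjusted p = 3.7e-06 and 8.5e-04). Of the 10 markers of SKOV3 epithelial cancer cells 7 averaged at least 1 FPKM in each group, and 2 rose and 5 fell in sh1 and 2 rose and 1 fell in sh3 (median log2 changes -0.32 and -0.07). Without sh3 replicate 1 or shNC replicate 3, 2 fell in sh3. PAX8, a lineage factor of the ovarian and Mullerian epithelium, averaged 27.5 ± 0.851 FPKM in sh1, 36.5 ± 1.51 in sh3 and 57.1 ± 4.11 in shNC libraries. Other markers of the line rose. KRT7 averaged 43.2 ± 0.902 FPKM in sh1, 25.1 ± 0.967 in sh3 and 23.5 ± 0.768 in shNC libraries, a rise of 0.91 in sh1. KRT8 averaged 97.8 ± 2.55 FPKM in sh1, 152 ± 2.34 in sh3 and 97.3 ± 2.65 in shNC libraries, a rise of 0.64 in sh3.

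Secreted factors outside the VEGF and angiopoietin families changed in both directions. Of 26 tested angiogenic factors 8 rose and 7 fell in sh1 and 4 rose and 6 fell in sh3 against shNC (median log2 changes 0.14 and 0.04). CCN1, a matricellular integrin ligand, averaged 85.2 ± 2.73 FPKM in sh1, 31.6 ± 2.26 in sh3 and 22.4 ± 3.5 in shNC libraries, and rose by 1.96 ± 0.09 and 0.50 ± 0.09 (edgeR adjusted p = 2.1e-08 and 0.0014). HBEGF, a ligand of the EGF receptor, rose by 1.25 ± 0.10 in sh1 (adjusted p = 1.2e-06). The neutrophil chemokine CXCL8 averaged 4.7 ± 0.288 FPKM in sh1, 2.61 ± 0.414 in sh3 and 10.7 ± 2.78 in shNC libraries, and fell by 1.15 ± 0.16 and 2.03 ± 0.17 (adjusted p = 1.3e-04 and 4.6e-06). CXCL5 rose by 4.53 ± 0.52 in sh3 (adjusted p = 6.0e-05), to 2.11 ± 0.477 FPKM, against 0.0897 ± 0.0871 FPKM in shNC libraries. Its counts were 250 to 421 in sh3, 9 to 17 in sh1 and 4 to 30 in shNC libraries. It thus met the rule of at least 1 FPKM only through sh3, where it was high. The size of its sh3 change ranged from 1.5 to 5.61 over the 16 alternative fits.

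Among 13 tested inhibitors of angiogenesis 4 rose and 2 fell in sh1 and 4 rose and 3 fell in sh3 (median log2 changes -0.02 and -0.12, also with a gene that had no count in a group set at its floor of 3 counts over the group). In sh3, 1 rose without sh3 replicate 2 or 3 or shNC replicate 1 or 2, and in sh1, 1 fell without sh1 replicate 3. THBS1, a thrombospondin that restrains vessel growth, averaged 226 ± 4.34 FPKM in sh1, 84.4 ± 2.51 in sh3 and 67.4 ± 11.9 in shNC libraries and rose by 1.78 ± 0.09 in sh1 (edgeR adjusted p = 4.8e-08). ADAMTS1, a secreted protease that binds VEGFA, averaged 24.8 ± 0.951 FPKM in sh1, 10.6 ± 0.539 in sh3 and 8.41 ± 1.55 in shNC libraries and rose by 1.59 ± 0.10 in sh1 (adjusted p = 1.7e-07). SERPINB5 fell by 1.37 ± 0.11 in sh1 (edgeR adjusted p = 1.8e-06) and rose by 0.33 ± 0.11 in sh3 (adjusted p = 0.044). The sh3 call was lost in 10 of the 16 alternative fits. CXCL10 had 83, 84 and 102 counts in sh1 libraries, 0 in each sh3 library and 0, 104 and 84 in shNC libraries.

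Hypoxia-inducible genes, a list read here because VEGFA and ANGPTL4 belong to that response, fell more often than they rose: of 17 tested 3 rose and 11 fell in sh1 and 2 rose and 6 fell in sh3 (median log2 changes -0.37 and -0.17). Of all tested genes 19.9% rose and 18.8% fell in sh1, and 14.4% rose and 12.4% fell in sh3. NDRG1, a stress-induced gene of the response, averaged 3.31 ± 0.239 FPKM in sh1, 5.57 ± 0.195 in sh3 and 8.39 ± 0.754 in shNC libraries, and fell by 1.31 ± 0.06 and 0.59 ± 0.06 (edgeR adjusted p = 3.4e-08 and 3.6e-05). EPAS1, which encodes HIF-2 alpha, fell by 0.56 ± 0.06 and 0.59 ± 0.06 (adjusted p = 2.2e-05 and 3.4e-05). No set test was run on any of these lists, and nothing particular to a list is read from its counts.

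**Figure D5:**
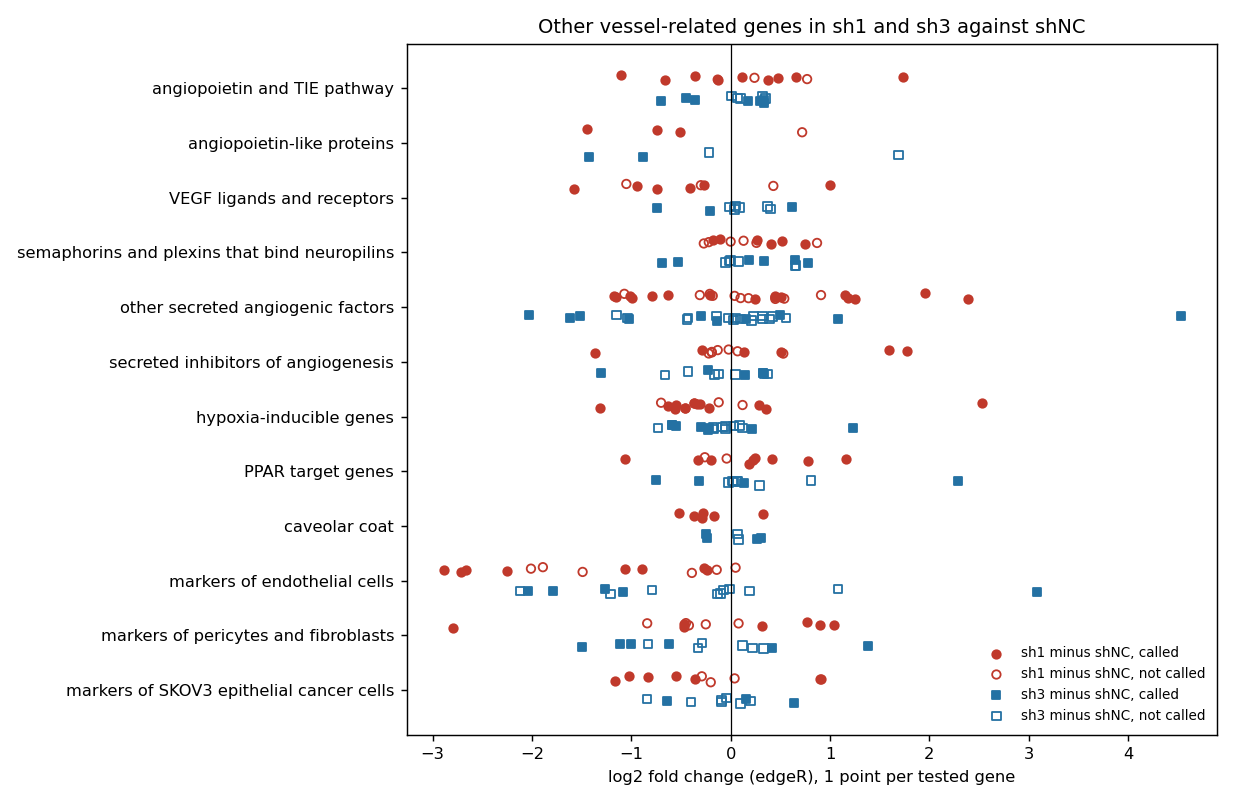
Log2 fold change (x axis, edgeR) of every tested gene of 12 lists (y axis) in sh1 against shNC (circles) and sh3 against shNC (squares); filled symbols passed an adjusted p under 0.05, and genes with no count in a whole group are not drawn. Endothelial markers lay mostly left of 0, with medians of -1.27 in sh1 and -0.46 in sh3, while the angiopoietin and TIE pathway had medians of 0.17 and 0.14.

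Many genes shared the patterns of the listed ones. By Pearson correlation of log2 CPM over the 9 libraries, among 10870 genes averaging at least 1 FPKM, the 5 most like ANGPT2 were RB1, KRT19, EMP1, MED14 and COMMD10, with r of 0.999, 0.998, 0.998, 0.998 and 0.997, and 709 genes reached 0.9. RB1, the retinoblastoma protein, averaged 8.43 FPKM in sh1, 19.0 in sh3 and 19.3 in shNC libraries, and KRT19, a keratin of simple epithelia, 14.0, 31.0 and 31.9 FPKM in sh1, sh3 and shNC libraries. For PLVAP the 5 were PI16, RNF11, YAP1, ANKRD10 and NBR1, with r of 0.999, 0.998, 0.997, 0.996 and 0.996, and 818 genes reached 0.9. PI16 averaged 0.212 FPKM in sh1, 2.52 in sh3 and 3.56 in shNC libraries. For VEGFA the 5 were IER3, TMEM74B, WARS1, PSAP and TK2, with r of 0.963, 0.961, 0.961, 0.954 and 0.949, and 28 genes reached 0.9. The 9 points form 3 groups of 3 libraries, so these values mostly describe the order of the group means.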

How the data were processed

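Poly(A)-selected RNA of 9 SKOV3 libraries was made into dUTP-marked paired libraries, per the labels' protocols. The submitters' processing notes list GRCh38 and the tools HISAT2 2.2.1, StringTie 2.1.6, cutadapt 1.9, edgeR and DESeq2, without saying what each was used for. The authors deposited 1 table with raw counts, whole numbers of reads for each gene. The authors deposited FPKM in further columns of it, and no source used here says how they were computed.

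Counts were tested with edgeR 4.0.16 in R 4.3.3 (filterByExpr with a minimum count of 10, TMM scaling, glmQLFit and glmQLFTest, 1 mean per group over all 9 libraries, two-sided, Benjamini-Hochberg over 21296 genes, called under 0.05) and FPKM was used to compare levels between genes. Standard errors were the absolute log2 change over the root of F. The test was tested on simulated data. Replicate numbers did not pair the libraries. The 16 alternatives used DESeq2 1.42.0, library totals, no filter on low counts, a replicate block, limma 3.58.1 on log2(FPKM + 1) and log2(FPKM + 0.1), the 6 libraries compared, and each library left out.

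The 10 genes and the lists were chosen with earlier results of these data known. The 13 lists held 179 symbols, of which 174 were in the table. Besides the 10 genes, the rule named up to 2 called genes per list and direction in each contrast against shNC with a mean of at least 1 FPKM, the 5 genes most alike (log2 CPM, prior count 1), genes overlapping the 10 and STXBP6. Genes outside this rule, such as single markers and receptors, are given by level only, and VEGFD also by its log2 changes. 1 listed gene that the rule names is not reported here.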

Additional observations from a re-analysis of the deposited data

Results flagged for a closer look

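For 5 of the 8 genes described with a test, the effects of the hairpins differed from each other by the edgeR test of sh1 minus sh3, adjusted over all genes, by which 25.9% of all tested genes were called. TIE1 differed most, by -1.92 on the log2 scale, and was the gene whose changes against shNC pointed in opposite directions. ANGPT1 differed by -1.36, with both changes downward. NRP1 differed by -0.22 and VEGFB by -0.15, again with both changes downward and the larger one in sh1. ANGPTL4 differed by 0.26, with the larger fall in sh3. The VEGFB and ANGPTL4 differences lost their call without single libraries, as given above.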

How the results depend on the processing

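Of the 10 genes, TIE1 and NRP1 kept direction and call in all 3 contrasts under the 16 alternatives. ANGPT2 and PLVAP kept their direction in each. The number of the 10 genes called in sh3 against shNC was 7, and 4 to 7 with 1 library left out: it was 4 without sh3 replicate 2 and 4 without sh3 replicate 3. VEGFC in sh1 minus sh3 ranged over -0.13 to 0.09 with 1 library left out, and turned to 0.03 without sh1 replicate 3 and to 0.09 without sh3 replicate 3, in neither case called. STXBP6 in sh1 minus shNC ranged over -0.15 (without sh1 replicate 3) to 2.6, and the cause was not tested. DESeq2 also called VEGFC in sh1 (adjusted p = 0.036) and sh3 (0.028), VEGFA in sh1 (0.015) and TEK in sh1 (0.022). For TEK no sh1 library had passed the filter, so its call is given no weight here either. limma did not call ANGPT1 between the hairpins (adjusted p = 0.16 with a pseudocount of 1 and 0.052 with 0.1). The limma fits (0.087 and 0.083), the fit with no filter (0.072) and that of the 6 libraries compared (0.057) lost the VEGFA call in sh3, and the last 2 settings also lost the VEGFB call in sh3 (0.073 and 0.067).

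With the replicate number as a block, 7951 genes were called in sh1 and 5446 in sh3 against shNC and 5125 between the hairpins, and 7, 6 and 7 of the 10 genes. Deviations of libraries with the same number correlated at -0.03 to 0.02, so the numbers were not used as pairs. The block added the VEGFA call in sh1 (adjusted p = 0.034) and removed the VEGFB call in sh3 (0.052), and no other call of the 10 changed. TEK, STXBP6 and, less so, ANGPT1 are limited by depth: a floor of 3 counts is 0.0433 to 0.052 CPM in these libraries.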
